A study of Mus musculus with 20 samples.

Results

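The transcripts described here are 10 genes that mark macrophages and the complement recognition molecule they secrete: Ptprc, Cd68, Adgre1, Csf1r, Lyve1, Mrc1, Cd163, C1qa, C1qb and C1qc. They were chosen by name, as the rows of both count tables whose Ensembl identifier carries one of these symbols in the GENCODE annotation of GRCm38, with no threshold on a measured value. All 10 were found among 47069 genes in the heart table and 53801 genes in the muscle table, and all 10 passed the filter on low counts in both tissues.

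Resident macrophages live in every healthy organ. In the heart they sit between cardiac myocytes and along vessels, clear dying cells and debris, and are renewed largely in place under the control of the receptor Csf1r, with a smaller share replenished by blood monocytes that carry Ccr2. Tissue macrophages are also a main source of C1q, a protein built from A, B and C chains that binds immune complexes and dying cells and starts the classical pathway of complement.

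RNA was sequenced in 20 libraries, 10 from heart (5 wild-type, WT, and 5 Taz-KD) and 10 from femur muscle (again 5 of each genotype). Each library has a code of its own (such as R3 or A33), and the labels do not say whether a code stands for an animal or whether a heart and a muscle came from the same mouse. WT animals were C57BL/6N, and Taz-KD animals carried the transgene ROSA26H1/tetO-shRNA:TAZ, whose hairpin RNA against Taz is switched on by doxycycline throughout the body and not in macrophages or muscle cells alone. Both genotypes ate chow with doxycycline (625 mg/kg) until 20 weeks of age. Whole tissue was measured, so fewer cells of a type cannot be told apart from less RNA per cell, and neither can be assigned to a cell.

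Totals per library ran from 26963288 to 35301909 counts in heart and from 36429399 to 74361382 in muscle, and every Taz-KD heart was counted more deeply than every WT heart. Levels are given as CPM, which are counts per library total with TMM scaling factors, and changes as log2 fold changes of Taz-KD over WT with their standard error (SE). Adjusted p-values come from edgeR's quasi-likelihood test over all genes of a table (Benjamini-Hochberg), with 0.05 as threshold. The targeted gene Taz ran from 36.0 to 39.2 CPM over WT hearts and from 11.02 to 12.9 CPM over Taz-KD hearts. Its muscle range was 45.9 to 54.8 CPM for WT and 12.7 to 15.2 CPM for Taz-KD, so the genotypes were apart in both tissues, with 30.8% of the WT mean left in heart and 26.0% in muscle. Cardiac myocyte genes summed to 37863 to 52466 CPM in the hearts, and skeletal myofibre genes to 67298 to 212004 CPM in the muscles.

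The WT muscle library A33 stood apart from the other 9 muscle libraries in genes of immune cells and adipocytes. Its 9 T cell genes summed to 111 CPM against a median of 2.23 CPM in the others (49.9 times), its 5 adipocyte genes to 1251 against 29.7 CPM, and its 10 genes of dendritic cells and MHC class II to 1050 against 103 CPM. Blood endothelium did not share this, at 520 CPM in A33 and 513 CPM at the median of the others. The genotype comparisons in muscle are therefore given with and without A33.

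In heart, all 10 estimates lay below 0 (Taz-KD lower), with a median of -0.29 beside -0.02 over all genes tested, and 1 of the 10, Ptprc, passed the test. Over all 19486 genes tested in heart, 10.3% were called lower and 14.4% higher in Taz-KD, so 1 of 10 called lower is close to the share among genes at large. Upper-quartile factors turned that split to 2511 lower and 2445 higher genes, from 1999 and 2804. An unadjusted p under 0.05 was reached by 4 members, and DESeq2 and limma-voom also called 1. The share of all genes under that unadjusted level was not counted, here, in muscle or beside the other lists. Such counts are therefore descriptions and cannot be set against genes at large. Taz-KD means lay between 72.2% and 91.6% of the WT mean, and coefficients of variation ran from 10.0% to 26.0% in WT and from 7.15% to 31.5% in Taz-KD.

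Ptprc (ENSMUSG00000026395, chr1:138062861-138175708, minus strand, GRCm38) encodes CD45, a phosphatase on the surface of all white blood cells. It measured 15.5, 15.9, 17.0, 17.7 and 19.8 CPM in WT hearts and 11.1, 11.2, 12.2, 13.7 and 13.8 CPM in Taz-KD hearts. Every WT heart lay above every Taz-KD heart, which was the case for 7.05% of all genes tested in heart and for no other member. The mean fell from 17.2 ± 1.72 (SD, n = 5) to 12.4 ± 1.29 CPM (SD, n = 5), a log2 fold change of -0.47 (SE 0.09, adjusted p = 0.00275, edgeR). This rested on 363 to 565 counts per library. The call was lost in 1 fit of all 20 libraries (adjusted p = 0.784, edgeR) and was kept in the same fit without A33 (adjusted p = 0.00978, edgeR).

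**Figure D1:**
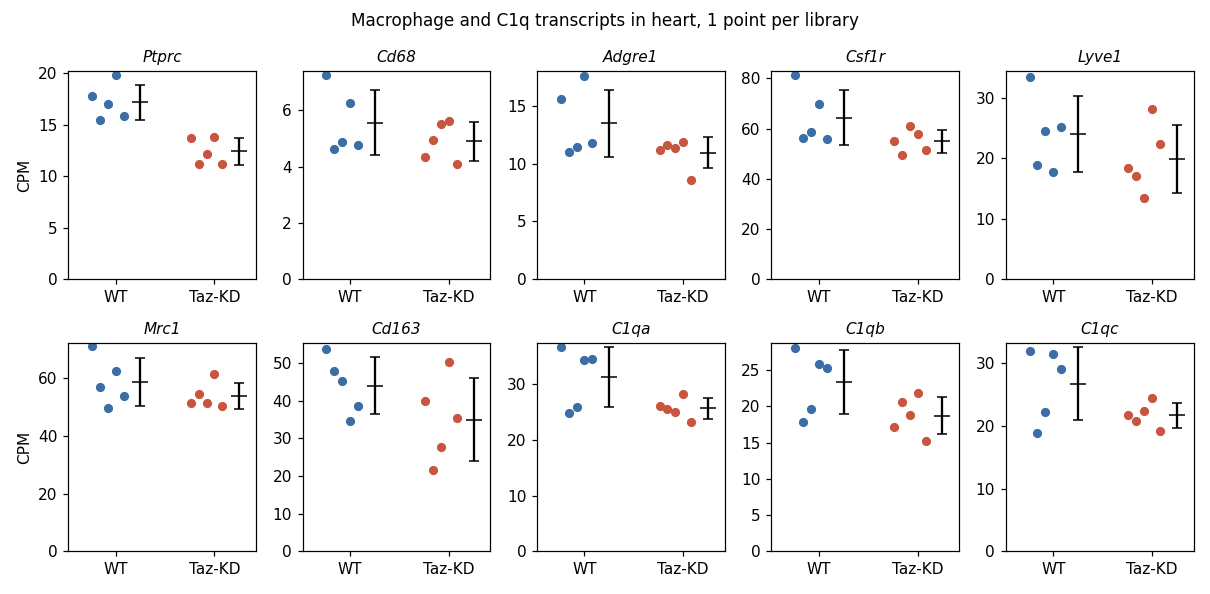
CPM of the 10 genes in each heart (points, 1 per library, linear axes from 0) for WT (blue) and Taz-KD (red), with the mean and SD of 5 libraries in black. The Ptprc points of the genotypes do not overlap, whereas those of the other 9 genes do.

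Cd68, a lysosomal glycoprotein of phagocytes, Adgre1, which encodes the surface antigen F4/80, and Csf1r, the receptor for CSF1 and IL-34 on which macrophages depend, are general macrophage markers. Cd68 (ENSMUSG00000018774, chr11:69664213-69666153, minus strand) measured 4.62, 4.75, 4.86, 6.27 and 7.24 CPM in WT hearts and 4.07, 4.32, 4.95, 5.51 and 5.62 CPM in Taz-KD hearts. The genotypes interleaved, and the log2 fold change was -0.18 (SE 0.15, adjusted p = 0.418, edgeR).

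Adgre1 (ENSMUSG00000004730, chr17:57358691-57483527, plus strand) measured 11.1, 11.5, 11.8, 15.6 and 17.6 CPM in WT hearts and 8.58, 11.2, 11.4, 11.7 and 11.9 CPM in Taz-KD hearts. A pair of WT hearts lay well above all others, and the other 3 fell among the Taz-KD hearts. Its log2 fold change was -0.30 (SE 0.14, adjusted p = 0.143, edgeR).

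Csf1r (ENSMUSG00000024621) measured 55.7, 56.3, 58.8, 69.7 and 81.4 CPM in WT hearts and 49.6, 51.5, 54.9, 57.8 and 61.0 CPM in Taz-KD hearts, with overlap again. The log2 fold change was -0.23 (SE 0.11, adjusted p = 0.139, edgeR). Its gene model shares 873 exon bases with Hmgxb3 on the other strand, and the strand setting of the read counting is not given in the sources used here.

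Lyve1, Mrc1 and Cd163 are scavenging receptors typical of resident macrophages. Lyve1, a hyaluronan receptor also carried by lymphatic endothelium (ENSMUSG00000030787, chr7:110850607-110863239, minus strand), ranged from 17.8 to 33.5 CPM in WT hearts and from 13.4 to 28.1 CPM in Taz-KD hearts, with a log2 fold change of -0.27 (SE 0.22, adjusted p = 0.404, edgeR). Mrc1, the mannose receptor CD206 (ENSMUSG00000026712, chr2:14229392-14332057, plus strand), ranged from 49.7 to 71.2 CPM and from 50.5 to 61.6 CPM. Its log2 fold change of -0.13 (SE 0.09, adjusted p = 0.367, edgeR) was the one nearest to 0 among the members. Cd163, the receptor that takes up haemoglobin bound to haptoglobin (ENSMUSG00000008845, chr6:124304656-124330527, plus strand), ranged from 34.7 to 53.7 CPM in WT and from 21.6 to 50.2 CPM in Taz-KD hearts, the widest spread among Taz-KD hearts of any member (log2 fold change -0.33, SE 0.21, adjusted p = 0.290, edgeR). None of these 3 passed the test in any of the 21 alternatives run for heart.

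C1qa (ENSMUSG00000036887, chr4:136895917-136898803), C1qc (ENSMUSG00000036896, chr4:136889804-136893065) and C1qb (ENSMUSG00000036905, chr4:136880129-136886187) encode the A, C and B chains of C1q. They lie side by side on the minus strand of chromosome 4, within 18675 bases, with 2851 bases between C1qa and C1qc and 3616 bases between C1qc and C1qb. Bases before the gene models of C1qb and C1qc are shown from RefSeq (GRCm38.p6), 5′ to 3′ along the minus strand. They lie at chr4:136886201-136886450 for C1qb and chr4:136893066-136893164 for C1qc. The stretch of C1qc reaches its gene model. That of C1qb stops short of its gene model, so the bases next to the model are not shown. Capitals mark the letters GAGGAA, read on either strand, which are the core of the site bound by the myeloid factor PU.1 (gene Spi1).
C1qb: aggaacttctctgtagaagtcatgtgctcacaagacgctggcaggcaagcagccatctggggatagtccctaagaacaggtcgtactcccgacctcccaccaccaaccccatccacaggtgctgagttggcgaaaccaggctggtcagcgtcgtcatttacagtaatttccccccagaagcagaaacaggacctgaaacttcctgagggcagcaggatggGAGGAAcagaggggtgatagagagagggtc
C1qc: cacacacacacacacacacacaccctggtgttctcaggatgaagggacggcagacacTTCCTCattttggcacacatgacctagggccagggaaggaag

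The letters stood 38 bases before the gene model of C1qb and, on the opposite strand, 37 bases before that of C1qc. They occur in 23.3% of all 32851 RefSeq promoter windows over a stretch as long as that of C1qb (250 bases) and in 9.91% over a stretch as long as that of C1qc (99 bases). Over full windows of 300 bases they stood in 28.3% of all windows. Of 6 members looked up that had an entry, 5 carried them in a window: Ptprc, Cd68, Mrc1, C1qb and C1qc. Counted by window, as the share of all windows is, it was 5 of 7, since Ptprc had 2 windows and 1 carried them. The letters were thus not particular to the C1q chains. Csf1r was not looked up. A match describes letters and not a bound site. C1qa, Adgre1 and Lyve1 had no entry among these windows.

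C1qa measured 24.8, 25.9, 34.3, 34.5 and 36.6 CPM in WT hearts and 23.1, 25.0, 25.6, 26.0 and 28.2 CPM in Taz-KD hearts. C1qb measured 17.8, 19.6, 25.3, 25.8 and 28.1 CPM in WT and 15.3, 17.2, 18.8, 20.6 and 21.8 CPM in Taz-KD hearts. C1qc measured 18.9, 22.3, 29.0, 31.4 and 31.9 CPM in WT and 19.2, 20.8, 21.8, 22.3 and 24.5 CPM in Taz-KD hearts. The same 3 WT hearts lay above every Taz-KD heart for each chain, and the WT hearts R1791 and R1792 did not. The log2 fold changes of -0.29 (SE 0.11) for C1qa, -0.32 (SE 0.13) for C1qb and -0.30 (SE 0.14) for C1qc missed the threshold (adjusted p = 0.0751, 0.105 and 0.137, edgeR). Without R1791, the lowest WT heart for 6 of the 10 members, all 3 chains passed (adjusted p = 0.0217, 0.0338 and 0.0205, edgeR). With upper-quartile factors C1qa alone of them did (adjusted p = 0.0412, edgeR). Over the 21 alternatives C1qa passed in 2 and C1qb and C1qc in 1 each. The highest adjusted p over these edgeR, DESeq2 and limma-voom fits were 0.411, 0.342 and 0.339. Without the WT heart R3 or R1795, only Ptprc of the members had an unadjusted p under 0.05 (edgeR).

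The 3 chains kept nearly the same proportion to each other from one WT heart to the next, and the proportion varied more among Taz-KD hearts. In WT hearts the log2 ratio of C1qa to C1qb counts was 0.42 ± 0.04 (SD, n = 5), and in Taz-KD hearts 0.46 ± 0.13 (SD, n = 5), a difference of 0.04 (p = 0.556, exact two-sided permutation test, adjusted p = 0.694 over 10 ratios). The log2 ratio of C1qc to C1qb was 0.19 ± 0.07 (SD, n = 5) in WT and 0.22 ± 0.13 (SD, n = 5) in Taz-KD hearts (p = 0.635, exact two-sided permutation test, adjusted p = 0.705). Across the 10 hearts, Pearson's r of log2 CPM centred within genotype was 0.93 between C1qa and C1qb, 0.97 between C1qa and C1qc and 0.91 between C1qb and C1qc, against a median of 0.62 over the 45 pairs of members. These correlations share libraries and their scaling and are descriptions.

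**Figure D2:**
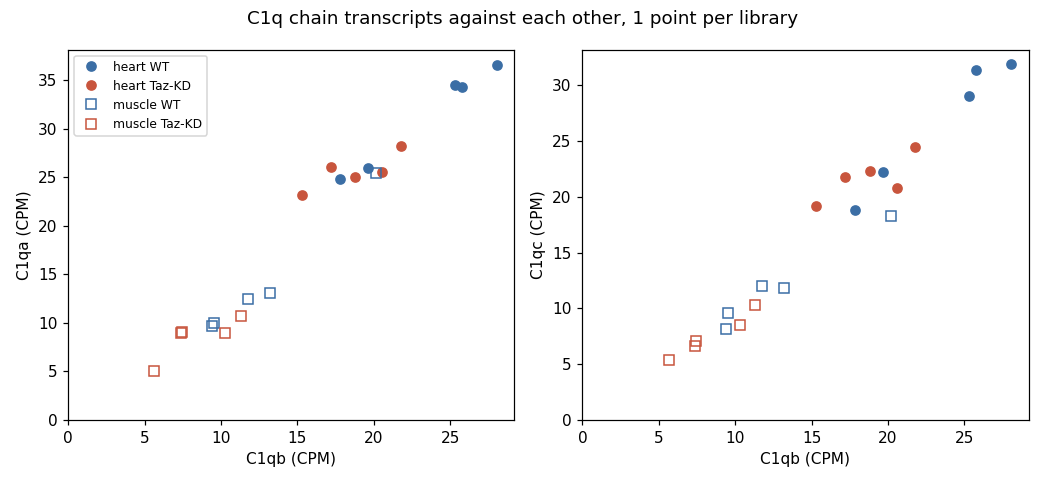
CPM of C1qa (left) and C1qc (right) against C1qb, 1 point per library, in heart (filled circles) and muscle (open squares) of WT (blue) and Taz-KD (red) mice. Points of both genotypes fall along a common line in each tissue, and the muscle square farthest up, among the hearts, is the WT library A33 (C1qa 25.4 CPM).

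Some hearts were high or low in many members at once. The WT heart R3 was the highest of all 10 hearts for 8 members and R1795 for the other 2. Among Taz-KD hearts, R1797 was the highest for 9 members and R1798 the lowest for 6. Summed over the members, WT hearts held 273 to 377 CPM and Taz-KD hearts 238 to 303 CPM.

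In muscle, all 10 estimates again lay below 0, with a median of -0.61, but none passed edgeR's test. At an unadjusted p under 0.05 there were 6, limma-voom called 0 and DESeq2 called 1, Lyve1, while giving no p for Ptprc. Over all 16145 genes tested in muscle edgeR called only 3 (0.0186%), in either direction. Without A33 the median moved to -0.35, 9 of 10 estimates lay below 0 and none passed (3 at an unadjusted p under 0.05).

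Lyve1 was the member whose genotypes were apart in muscle. It measured 6.71, 7.32, 8.11, 8.12 and 8.79 CPM in WT muscles and 4.52, 4.85, 4.93, 5.34 and 5.35 CPM in Taz-KD muscles, and the library A33, at 8.12 CPM, lay within the WT range. Every WT muscle lay above every Taz-KD muscle, as for 1.08% of all genes tested in muscle and for no other member. Taz-KD muscle averaged 5.0 ± 0.351 CPM (SD, n = 5), or 64.0% of the WT mean of 7.81 ± 0.803 CPM (SD, n = 5). The log2 fold change of -0.64 (SE 0.11) did not pass edgeR's test (adjusted p = 0.244), nor without A33 (-0.63, SE 0.12, adjusted p = 0.477, edgeR). DESeq2 called it with all libraries (adjusted p = 4.53e-05) and without A33 (adjusted p = 0.000728), where with all libraries it called 0.663% of genes lower. Of 6 tested genes of lymphatic endothelium, which carries Lyve1 too, none passed in muscle by edgeR, DESeq2 or limma-voom (1 at an unadjusted p under 0.05), and their median log2 fold change was -0.36 with A33 and -0.42 without it.

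Ptprc in muscle was dominated by A33, which measured 84.4 CPM beside 1.98, 2.01, 2.19 and 2.76 CPM in the other WT muscles and 1.36, 1.41, 1.51, 1.597 and 2.10 CPM in Taz-KD muscles. With A33 the log2 fold change was -3.54 (SE 1.17, adjusted p = 0.311, edgeR), and without it -0.48 (SE 0.18, adjusted p = 0.518, edgeR), with the genotypes overlapping either way. The estimate without A33 lay near that of heart.

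**Figure D3:**
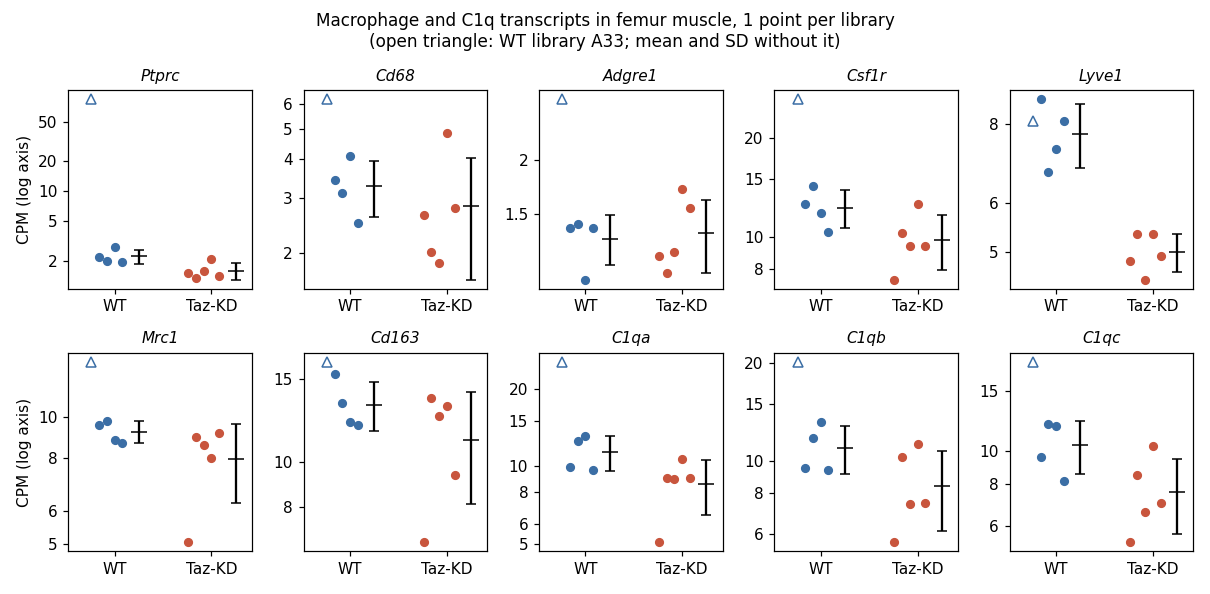
CPM of the 10 genes in each femur muscle (log axes, 1 point per library) for WT (blue) and Taz-KD (red), with the mean and SD in black computed without the WT library A33 (open triangle). A33 is the highest muscle for 9 genes and lies within the WT range for Lyve1.

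C1qa measured 9.69, 10.0, 12.5, 13.1 and, in A33, 25.4 CPM in WT muscles and 5.09, 8.92, 9.0, 9.03 and 10.7 CPM in Taz-KD muscles. C1qb ranged from 9.40 to 13.2 CPM in the other WT muscles, with 20.2 CPM in A33, and from 5.64 to 11.3 CPM in Taz-KD muscles. C1qc ranged from 8.18 to 12.0 CPM, with 18.3 CPM in A33, and from 5.38 to 10.3 CPM. A33 was thus the highest muscle for each chain, and the Taz-KD muscle A34 the lowest. The chains had log2 fold changes of -0.73 (C1qa), -0.60 (C1qb) and -0.66 (C1qc) with A33 and of -0.41, -0.38 and -0.46 without it. Their adjusted p-values (edgeR) were 0.313, 0.320 and 0.311 with A33 and 0.528, 0.547 and 0.525 without it. The genotypes overlapped for all 3 chains. The ratio of C1qa to C1qb stood at 0.11 ± 0.13 (SD, n = 5) on the log2 scale in WT and 0.02 ± 0.23 (SD, n = 5) in Taz-KD muscle, with the highest WT value, 0.33, in A33 (p = 0.5, exact two-sided permutation test, adjusted p = 0.694), and without A33 the difference moved from -0.08 to -0.03 (exact permutation, adjusted p = 0.857).

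Csf1r ranged from 10.4 to 14.3 CPM in WT muscles other than A33, which held 26.2 CPM, and from 7.43 to 12.6 CPM in Taz-KD muscles (log2 fold change -0.62 with and -0.32 without A33). Cd68 ranged from 2.50 to 6.22 CPM in WT and from 1.87 to 4.83 CPM in Taz-KD muscles (-0.45 with and -0.21 without A33). Cd163 ranged from 12.0 to 16.4 and from 6.74 to 13.7 CPM (-0.32 and -0.25), and Mrc1 from 8.70 to 13.6 and from 5.05 to 9.17 CPM (-0.34 and -0.22). Adgre1 was the least counted member, with 45 to 135 counts per muscle library, and its sign depended on A33. It measured 2.78 CPM in A33, 1.05 to 1.42 CPM in the other WT muscles and 1.09 to 1.71 CPM in Taz-KD muscles, with a log2 fold change of -0.25 (SE 0.27, adjusted p = 0.640, edgeR) with A33 and 0.04 (SE 0.20, adjusted p = 0.933, edgeR) without it.

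The log2 ratio of Adgre1 to Ptprc counts, which does not depend on the scaling between libraries, was higher in every Taz-KD muscle (-0.39 to 0.13) than in any WT muscle (-4.92 to -0.50). The exact two-sided permutation p of 0.00794 is the smallest that 5 against 5 can give. It did not pass after adjustment over 10 ratios (0.0794), so no ratio that was apart alone could have passed. The difference was 1.35 with A33 and 0.52 without it (exact permutation, adjusted p = 0.159). Without A33 the genotypes were still apart, with the other WT muscles at -1.38 to -0.50. The smallest p that can be reached is larger with fewer libraries, so the adjusted p with and without A33 cannot be compared. In heart the same ratio was -0.37 ± 0.18 (SD, n = 5) in WT and -0.18 ± 0.18 (SD, n = 5) in Taz-KD (p = 0.143, exact two-sided permutation test, adjusted p = 0.694). The ratios of Lyve1 to Mrc1 and of Cd163 to Mrc1 did not pass in either tissue, with exact permutation p from 0.214 to 1, nor in muscle without A33 (adjusted p = 0.476 and 0.857, exact permutation).

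**Figure D4:**
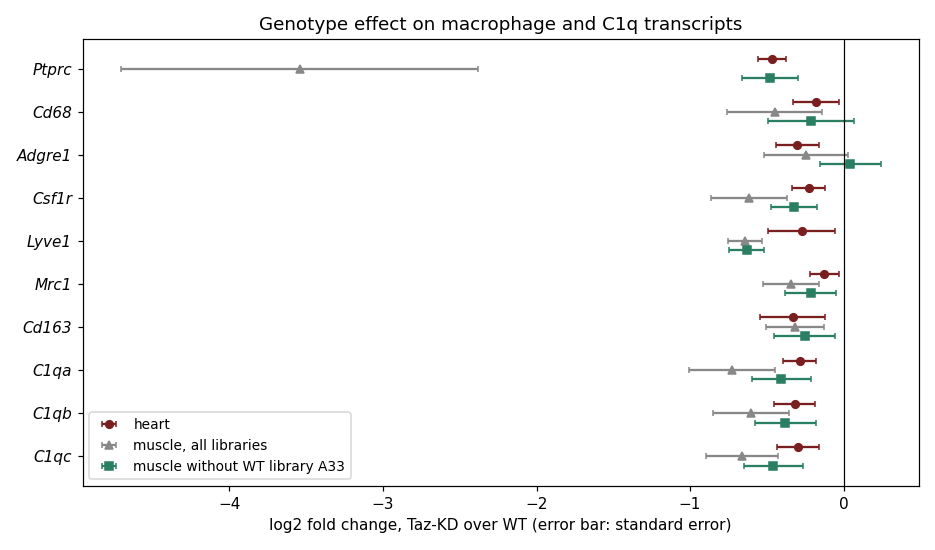
Log2 fold change of Taz-KD over WT (points) with its standard error (bars) for each gene in heart (red circles), in muscle with all libraries (grey triangles) and in muscle without the WT library A33 (green squares). All heart points lie left of 0, and leaving out A33 moves the muscle point of Ptprc from -3.54 to -0.48.

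Whether the genotype effect differed between heart and muscle was tested as an interaction in 1 fit of 20 libraries, treated as unpaired. None of the 10 members passed (adjusted p from 0.154 for Ptprc to 0.959 for Cd163, edgeR), while 4.62% of the 20612 genes tested did. At an unadjusted p under 0.05 there was 1, Ptprc. Limma-voom called 0 of the 10, and DESeq2 called 0 of the other 9 and gave no p for Ptprc. Without A33 none passed and none had an unadjusted p under 0.05, and the interaction estimate of Ptprc moved from 2.89 to -0.03.

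Levels of the members also differed between the tissues. In the same fit, 7 of 10 were called higher in WT heart than in WT muscle, beside 45.2% of all genes tested. The difference was largest for Adgre1, at a log2 difference of 2.45 (SE 0.20, adjusted p = 8.78e-10, edgeR), followed by Mrc1 at 1.92 (SE 0.14, adjusted p = 1.09e-10, edgeR) and Csf1r at 1.48 (SE 0.18, adjusted p = 2.31e-07, edgeR). Cd163 (1.04), Lyve1 (0.98), C1qc (0.54) and C1qa (0.53) followed with adjusted p from 2.81e-05 to 0.0219 (edgeR), whereas C1qb (0.25, adjusted p = 0.234), Cd68 (-0.09, adjusted p = 0.719) and Ptprc (-0.64, adjusted p = 0.448) did not pass edgeR's test. The call of C1qa was lost without the muscle A40 (adjusted p = 0.0636, edgeR), without the muscle A55 (adjusted p = 0.102, edgeR) and without the hearts R2 and R3 (adjusted p = 0.0556, edgeR).

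Without A33, C1qb (0.42, adjusted p = 0.0379, edgeR) and Ptprc (2.27, SE 0.14, adjusted p = 1.47e-11, edgeR) were called higher in heart as well, and Cd68 was not (0.09, adjusted p = 0.721, edgeR). These values depend on the scaling, since the median over all genes tested was itself 0.22 in favour of heart and became 0.76 with library sizes alone. Relative to that median, C1qa stood at 0.32 and 0.26, C1qb at 0.03 and -0.00, Cd68 at -0.31 and -0.35 and Adgre1 at 2.23 and 2.22 under TMM and library sizes. Tissue cannot be told apart from whatever else differed between the preparation and sequencing of the hearts and the muscles.

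Per kilobase of exons of basic protein-coding transcripts, the C1q chains were the most abundant members in every group. In WT hearts C1qa stood at 30.02 ± 5.22 CPM per kb (SD, n = 5), C1qc at 22.2 ± 4.84 and C1qb at 21.4 ± 4.01, and these neighbours overlapped. Csf1r (13.2 ± 2.27), Mrc1 (10.9 ± 1.55), Cd163 (9.80 ± 1.68) and Lyve1 (8.31 ± 2.16 CPM per kb) followed with overlap between neighbours, then, below every Lyve1 value, Cd68 (4.41 ± 0.920), Adgre1 (4.17 ± 0.905) and Ptprc (3.35 ± 0.335), which overlapped. Taz-KD hearts had the same order of means. In WT muscle without A33, C1qa (10.9 ± 1.67 CPM per kb, SD, n = 4), C1qb (10.1 ± 1.69) and C1qc (8.65 ± 1.53) led again, and Ptprc (0.437 ± 0.0708) and Adgre1 (0.405 ± 0.0537) came last. With A33 the chains led as well (13.6 ± 6.24, 11.8 ± 4.06 and 9.96 ± 3.22 CPM per kb, SD, n = 5), and Ptprc came next (3.65 ± 7.18).

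The genes around the members in heart changed unequally. Beside the count of each list that follows stands the share over all genes tested in heart, 10.3% called lower and 14.4% higher. The lists were chosen with earlier results of these data known, so their counts are descriptions. Of 24 other genes of resident macrophages, 7 were lower in Taz-KD hearts and none higher, with 20 of 24 estimates below 0 and a median of -0.22. Mertk, the receptor through which macrophages engulf dying cells, fell from 22.4 ± 2.05 (SD, n = 5) to 16.7 ± 1.70 CPM (SD, n = 5; log2 fold change -0.42, adjusted p = 0.00377, edgeR). Fcer1g, the signalling chain of Fc receptors (-0.56, adjusted p = 0.0136, edgeR), and Siglec1, a sialic acid receptor (-0.36, adjusted p = 0.0333, edgeR), were also lower, Siglec1 in 9 of 21 alternatives and Mertk and Fcer1g in 19 each. Timd4 (-0.09, adjusted p = 0.765) and Folr2 (-0.28, adjusted p = 0.169), markers of long-lived resident cells, did not pass edgeR's test. The count of 7 became 2 without the hearts R2 and R3 or in 1 fit of all 20 libraries, 3 with library sizes alone, 4 with no filter on low counts, 4 without R3, and 3 without R1792, R1795, R1796 or R1798.

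**Figure D5:**
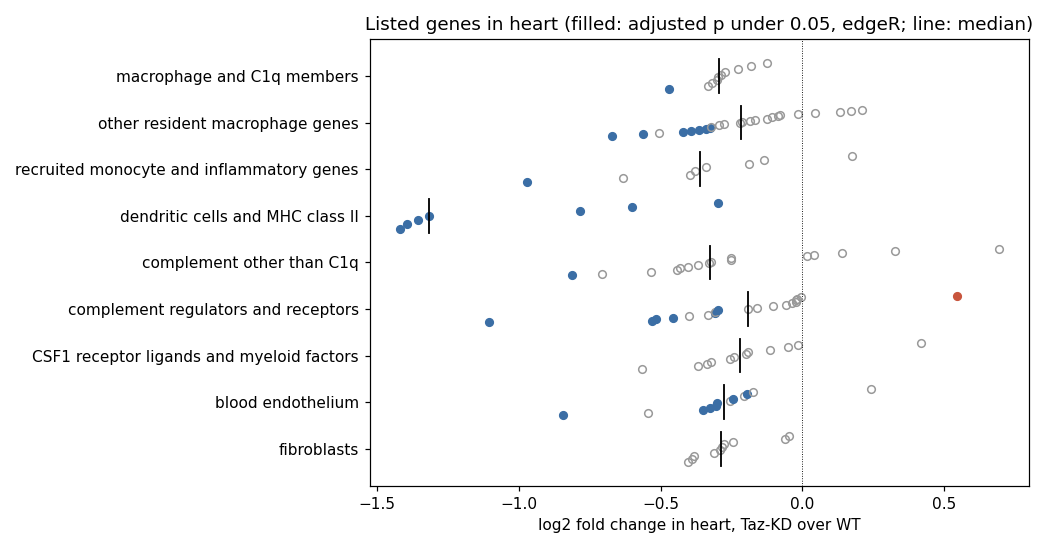
Log2 fold change in heart (Taz-KD over WT) of every tested gene of 9 lists, 1 point per gene. Filled points passed edgeR's test (blue lower, red higher), open points did not, and black lines are list medians, which lie below 0 for all 9 lists and lowest for dendritic cells and MHC class II (-1.32).

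All 7 tested genes of dendritic cells and MHC class II, of 10 listed, were lower in Taz-KD hearts, with a median log2 fold change of -1.32. The tested genes outside MHC class II, Clec9a and Zbtb46, fell less. Over the 21 alternatives their log2 fold changes ran from -0.71 to -0.52 and from -0.34 to -0.22. Among the 7 tested, the largest falls were thus those of the class II chains and Cd74. Cd209a, Flt3 and Xcr1, listed dendritic cell genes, were left out by the filter on low counts. Cd209a ran from -2.19 to -2.15 over the 3 alternatives that tested it and passed in all 3. Flt3 stood at -1.74 and passed in the 1 that tested it, and Xcr1, at -0.57 to -0.52, passed in 0 of 3. Ciita, the activator of MHC class II genes, measured 4.30 to 5.85 CPM in WT and 2.96 to 3.36 CPM in Taz-KD hearts (-0.78, adjusted p = 0.000302, edgeR). H2-Eb1, a class II chain, fell from 16.9 ± 4.63 (SD, n = 5) to 6.32 ± 1.597 CPM (SD, n = 5; -1.42, adjusted p = 0.000686, edgeR). Cd74, the invariant chain, fell from 51.1 ± 13.7 (SD, n = 5) to 20.5 ± 4.46 CPM (SD, n = 5; -1.32, adjusted p = 0.000964, edgeR), and H2-Aa from 20.8 ± 5.82 (SD, n = 5) to 8.14 ± 2.01 CPM (SD, n = 5; -1.35, adjusted p = 0.000979, edgeR). Genotypes did not overlap for any of the 7 tested genes, beside 7.05% of all genes tested in heart with every WT heart above every Taz-KD heart. In 1 fit of all 20 libraries 2 of the 7 passed. Of 8 tested genes of recruited monocytes and inflammation, 1 was lower, the monocyte receptor Ccr2, which measured 1.63 to 4.48 CPM in WT and 0.874 to 1.88 CPM in Taz-KD hearts (-0.97, adjusted p = 0.0192, edgeR). Ccr2 was not called without the hearts R2 and R3 (adjusted p = 0.0716, edgeR).

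The ligands of Csf1r did not pass in heart: Csf1 had a log2 fold change of -0.19 (adjusted p = 0.225, edgeR) and Il34 of -0.34 (adjusted p = 0.0696, edgeR). None of the 12 ligands and myeloid factors of that list passed (11 estimates below 0, 3 at an unadjusted p under 0.05, 1 called by DESeq2 and 0 by limma-voom), among them Spi1, which encodes PU.1 (-0.11, adjusted p = 0.757, edgeR).

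Of 16 tested complement genes other than C1q, 1 was lower in heart, C8g (-0.81, adjusted p = 0.00228, edgeR), which encodes a chain of the terminal complex. The proteases that C1q activates, C1ra (-0.37, adjusted p = 0.269) and C1s1 (-0.43, adjusted p = 0.0575), and the downstream components C2 (-0.32, adjusted p = 0.190), C4b (-0.40, adjusted p = 0.679) and C3 (-0.44, adjusted p = 0.439) did not pass edgeR's test. C2 shares 1656 exon bases with Gm20547 on the same strand, and its reads could be split between them. C3 ranged from 59.5 to 325 CPM among WT hearts. C8b and Mbl2 had 0 counts in all hearts and muscles.

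Among 19 tested regulators and receptors of complement, 6 were lower and 1 higher in heart. Clu, which encodes clusterin, an inhibitor of the terminal complex, measured 213 to 311 CPM in WT and 110 to 167 CPM in Taz-KD hearts (-1.10, SE 0.13, adjusted p = 8.08e-05, edgeR). Scarf1, a scavenger receptor that binds C1q (-0.52, adjusted p = 0.000313, edgeR), Cd93 (-0.46, adjusted p = 0.0104, edgeR) and Cd55, which speeds the decay of the C3 convertases (-0.31, adjusted p = 0.0226, edgeR), were lower, Cd55 in 13 of 21 alternatives and the others in all 21. C1qbp, which binds the globular heads of C1q and is a protein of the mitochondrial matrix, went the other way, from 67.6 ± 6.77 (SD, n = 5) to 98.6 ± 4.36 CPM (SD, n = 5; 0.55, adjusted p = 0.000151, edgeR).

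Markers of other cells moved with genotype in heart as well. Of 12 genes of blood endothelium 7 were lower, with Pecam1, an adhesion molecule of vessel walls, at -0.33 (adjusted p = 0.00367, edgeR) and a summed level of 1324 to 1504 CPM in WT and 1083 to 1193 CPM in Taz-KD hearts. That count of 7 fell to 0 in 1 fit of all 20 libraries, to 1 in that fit without A33, to 4 with no filter and to 3 or 4 without R1792, R1795, R1800, R1797 or R1798. Of 6 tested red cell genes 4 were lower, led by Slc4a1, the anion exchanger of red cells, at -1.36 (adjusted p = 0.00370, edgeR), with sums of 422 to 744 and 290 to 458 CPM. Fibroblast genes (10 of 10 estimates below 0, median -0.29) did not pass by edgeR, DESeq2 or limma-voom, with 0 at an unadjusted p under 0.05. Cardiac myocyte genes did not pass edgeR's test either (1 of 8 at an unadjusted p under 0.05, 1 called by DESeq2 and 0 by limma-voom). Tested genes of T cells, B cells, neutrophils, mast cells and adipocytes did not pass by any of the 3 tools (1 T cell gene at an unadjusted p under 0.05), and no NK cell gene passed the filter. Ly6g of neutrophils and the myosin gene Myh4 of fast skeletal fibres had 0 counts in the hearts. Among skeletal myofibre genes Acta1 was higher (1.82, adjusted p = 0.0464, edgeR), in 10 of 21 alternatives. T cell genes summed to 12.9 to 20.0 CPM in WT and 15.8 to 20.0 CPM in Taz-KD hearts. The 6 NK cell genes, near the floor, summed to 0.547 to 0.971 CPM in WT and 0.0926 to 0.502 CPM in Taz-KD hearts. In the 1 alternative that tested them, Ncr1 (-2.66) and Klrb1c (-2.86) passed, whereas Nkg7, Gzma and Eomes did not. Klrk1 passed in 0 of 3 alternatives. Of 7 tested genes of lymphatic endothelium 1 was lower, Flt4, a receptor for VEGF-C (-0.30, adjusted p = 0.0405, edgeR), in 9 of 21 alternatives. The part of these cells, of blood left in the tissue and of the deeper counting of Taz-KD hearts in the lower Ptprc was not tested. In muscle no gene of these 18 lists passed edgeR's test with A33 (58 at an unadjusted p under 0.05, 4 called by DESeq2 and 0 by limma-voom) or without it (35 at an unadjusted p under 0.05).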

How the data were processed

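Libraries that keep strand were made from RNA depleted of ribosomal RNA and sequenced by the authors as paired reads of 150 bases. They aligned reads with STAR to mm10 (GRCm38), counted them per gene with featureCounts 1.6.4 and used DESeq2 2.11.40.6 for their own tests. The deposited values are the unnormalized counts. Not given in the sources used here are the annotation release, the strand setting and the handling of reads with several mapping places. Nothing says that reads carried molecular identifiers, and p-values measure the spread between these libraries, which are not labelled as separate animals.

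Symbols and positions came from GENCODE M21, which held 46574 of the heart and 53706 of the muscle genes. Libraries were grouped by genotype and tissue from their labels, and all 20 were used. Library codes are not shared between groups, so samples could not be paired. Each tissue was fitted in R 4.3.3 with edgeR 4.0.16 (filterByExpr, TMM, robust quasi-likelihood, Benjamini-Hochberg), and the interaction and the WT tissues were tested in 1 fit of 20 libraries over the 46649 shared genes before the filter. SE were derived from the F statistic. The scripts were tested on simulated data. Ratios within a library used counts plus 0.5 and exact permutation (two-sided, 252 assignments of 10 libraries; scipy 1.17.1), with Benjamini-Hochberg adjustment over 10. Correlations used log2(CPM + 0.5) centred within groups.

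Alternatives were DESeq2 1.42.0 (whose missing p for Ptprc in muscle, in the interaction and between WT tissues was kept missing), limma-voom (limma 3.58.1), median-ratio and upper-quartile factors, library sizes only, no filter, at least 10 counts in every library, no robust dispersion, 1 fit of all libraries, fits leaving out R2 and R3 (hearts numbered in another range) or each library in turn. Fits of 19 libraries and of DESeq2 without A33 were chosen after seeing the data.

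The 10 members and the 18 other lists were chosen with earlier results of these data known. All members and Taz are named, and from each list up to 4 genes with the smallest adjusted p among those past the test, genes against the list's direction, and the 10 genes most like C1q. Timd4, Folr2, Spi1, Csf1, Il34, C1ra, C1s1, C2, C4b, C3, Cd55, Clec9a, Zbtb46 and Adipoq were named for their roles after their values were seen. Some listed genes are not reported here.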

Additional observations from a re-analysis of the deposited data

Results flagged for a closer look

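Each of 60 groups of 5 libraries (10 members and 5 ratios in 4 groups) was looked at for a single library whose gap to its nearest neighbour was over 0.71 of the whole range. Chance gives this in about 1 in 20 groups of independent values, and 10 groups showed it. The groups share libraries and the members vary together, so the 10 cannot be set against that rate.

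The WT muscle A33 accounted for 7 of them. It was far above the other WT muscles for Ptprc (84.4 CPM), Adgre1 (2.78 CPM), Csf1r (26.2 CPM), Mrc1 (13.6 CPM) and C1qa (25.4 CPM). Its log2 ratio of C1qa to C1qb was high (0.33) and its log2 ratio of Adgre1 to Ptprc low (-4.92). The same library carried 397 CPM of B cell genes against a median of 65.0 CPM in the other muscles, 8.34 against 0.255 CPM of NK cell genes and 274 CPM of Adipoq, and the part of these cells in the values of the members was not tested.

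The other 3 were Taz-KD libraries. Adgre1 was low in the heart R1798 (8.58 CPM), which was also the lowest Taz-KD heart for 6 of the 10 members. Mrc1 was low in the muscle A34 (5.05 CPM), the lowest Taz-KD muscle for 6 members. The muscle A58 had the highest log2 ratio of Adgre1 to Ptprc among Taz-KD muscles (0.13).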

How the results depend on the processing

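No paired analysis was possible because each library has a code of its own and groups share none. In heart, 1 member passed, and 0 passed in 1 fit of all 20 libraries, 2 with upper-quartile factors (Ptprc and C1qa) and 1 to 4 when single libraries were left out. Ptprc passed in 20 of 21 alternatives, with adjusted p from 3.41e-05 to 0.784 and log2 fold changes from -0.51 to -0.41. In muscle, 0 members passed, and 1 passed with DESeq2 and with DESeq2 without A33, Lyve1 both times. Over 21 alternatives the adjusted p of Lyve1 ran from 4.53e-05 to 0.509. Signs turned for estimates near 0 or resting on A33. The muscle estimate of Adgre1, -0.25, was 0.042 without A33, 0.050 in the fit of 19 libraries and 0.047 with DESeq2 without A33, within -0.36 to 0.042 when single libraries were left out. The interaction turned with DESeq2 without A33 for Ptprc (-0.052) and Cd68 (-0.030) and with library sizes alone for Adgre1 (0.095) and Cd163 (0.12). Leaving out single libraries, it ran from -0.027 to 3.31 for Ptprc, -0.0088 to 0.53 for Cd68, -0.38 to 0.037 for Adgre1 and -0.25 to 0.049 for Cd163. The WT tissue difference of Ptprc was 1.18 with limma-voom and 2.36 with DESeq2 without A33 (-1.07 to 2.27 over single libraries left out). That of Cd68 was 0.073 with upper-quartile factors, 0.41 with library sizes alone, 0.068 with at least 10 counts in every library and 0.17 with DESeq2 without A33 (-0.19 to 0.090 over single libraries left out). The genotype difference of the log2 ratio of Cd163 to Mrc1 in muscle, 0.0012, ran from -0.061 to 0.11 over single libraries left out. Of all genes in heart, 1372 were called higher and 715 lower in 1 fit of all 20 libraries, and in muscle 38 and 107 by DESeq2 and 32 and 135 in 1 fit of all 20 libraries, against 2 and 1. With library sizes alone the median over all muscle genes moved to -0.16. Causes were not tested. Ptprc in heart regained its call in the 1 fit once A33 was left out, a fit chosen after seeing the data. Adgre1 had the fewest counts of the members in muscle, with as few as 45, and the part of depth in its spread was not tested.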

Other observations

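Among 12332 genes averaging 1 CPM or more in each tissue, the 10 genes outside the members whose log2 CPM, centred within the 4 groups, followed the mean of the C1q chains most closely over 20 libraries were Cmtm3 (Pearson's r = 0.90), Ltc4s, Fcer1g, Slc11a1, Pirb, Rbm47, Actb, Spi1, Camkk2 and Gpx1. The member Csf1r (0.85) ranked between Cmtm3 and Ltc4s. Cmtm3 stood at 0.98 over the hearts, 0.88 over the muscles and 0.86 over the muscles without A33, and at 0.90 over 19 libraries without A33. Of the 10, 6 remained among the closest 10 without A33, where Laptm5 (0.83) came next after Cmtm3. These values share libraries and scaling and are given as a description.

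Among the 7 other members, Csf1r followed the C1q mean most closely (0.85), then Mrc1 (0.71), Cd68 (0.66), Adgre1 (0.65), Ptprc (0.62), Cd163 (0.34) and Lyve1 (0.10). Without A33 these were 0.78 for Csf1r, 0.65 for Mrc1, 0.54 for Cd68, 0.51 for Ptprc, 0.46 for Adgre1, 0.36 for Cd163 and 0.17 for Lyve1, so that Ptprc and Adgre1 changed places. Within muscle alone, Adgre1 moved from 0.61 to 0.20. Over the 45 pairs of members, the median correlation was 0.62 in heart, 0.68 in muscle and 0.47 in muscle without A33.

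Without A33, the test of the difference between tissues also passed for Clu (-1.39, SE 0.23, adjusted p = 0.00150, edgeR) and H2-Eb1 (-1.10, SE 0.30, adjusted p = 0.0429, edgeR), which had 0.138 and 0.900 as adjusted p (edgeR) with all 20 libraries. Csf2ra and Tnni2 passed with all libraries (adjusted p = 0.0415 and 0.0452, edgeR) and not without A33 (0.0603 and 0.0602, edgeR), and C8g passed either way (0.00592 and 0.00750, edgeR).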
